A study of Mus musculus with 9 samples.

Results

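Integrins are cell surface receptors, each a pair of an α and a β chain, and laminins are the basement membrane proteins that many of them bind, each a trimer of an α, a β and a γ chain. The mouse genes for both were followed in enamel organs of mice raised under early life adversity (ELA). Members were the protein-coding genes whose symbols follow the patterns Itga or Itgb with a number and Lama, Lamb or Lamc with a number, plus Itgav. Of the 54532 genes in the count table, 31 that follow this rule are described: 21 integrins (13 α and 8 β chains) and 10 laminins (5 α, 3 β and 2 γ chains). All 31 passed the filter on low counts and were among the 15909 genes tested. The ELA group was 5 male pups raised with limited bedding and nesting material from postnatal day 2 (P2) to P12, and the control group was 4 male pups raised in standard cages. Pups of both groups were Crh-IRES-Cre; Ai14 tdTomato offspring on a C57Bl6 background, and all were taken at P12. One RNA library was made per mouse from the enamel organs of the first molars. For qPCR of P12 enamel organs the methods name 2 litters per group, with the same numbers of male pups. Which of the sequenced pups shared a litter, and what the numbers in their titles mean, is not given in the sources used here, and mice are named here by their titles.

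An integrin α chain largely sets which ligand is bound, and the β chain links the receptor to the cytoskeleton. Most β chains reach actin through talin and kindlin. Itgb4 instead pairs with Itga6 and reaches keratin filaments through the hemidesmosome, the plaque that fastens epithelial cells to their basement membrane. The main epithelial ligand of that receptor is a laminin that contains Lama3 and Lamb3. Itgb6 pairs with Itgav in epithelia and activates latent TGF-β, as does the pair of Itgav and Itgb8. In humans, inherited defects of LAMA3, LAMB3 and ITGB6 are known to cause malformed enamel. During enamel maturation a basement membrane rich in that laminin forms again between ameloblasts and enamel.

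The DNA before a RefSeq start of 3 members is shown: Itgb6 and Lamb3 as epithelial markers, and Itgb7 as a leukocyte chain. No mesenchymal or broad member is shown. RefSeq promoter windows (GRCm38.p6) were matched for 21 of the 31 members. Each sequence runs 5′ to 3′ on the strand of its gene and ends at the base before the first exon that GENCODE M21 annotates in that window. It covers 210 bases for Itgb6 (chr2:60722644-60722853, minus strand), 241 for Itgb7 (chr15:102231945-102232185, minus strand) and 249 for Lamb3 (chr1:193301744-193301992, plus strand). The Lamb3 window begins 94045 bases inside the gene as the count table annotates it, while those of Itgb6 and Itgb7 lie before it. Capitals mark the Smad box, CAGAC or its complement GTCTG, which TGF-β signalling factors are known to bind.
Itgb6: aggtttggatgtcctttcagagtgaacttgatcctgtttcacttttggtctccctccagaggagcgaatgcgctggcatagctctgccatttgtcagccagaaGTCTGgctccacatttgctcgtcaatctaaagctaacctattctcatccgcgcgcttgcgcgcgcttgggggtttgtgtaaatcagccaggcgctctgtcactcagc
Itgb7: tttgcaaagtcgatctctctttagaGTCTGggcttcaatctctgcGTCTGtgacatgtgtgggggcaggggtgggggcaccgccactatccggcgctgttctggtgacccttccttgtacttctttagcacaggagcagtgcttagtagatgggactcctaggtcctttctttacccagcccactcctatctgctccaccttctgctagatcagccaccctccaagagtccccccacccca
Lamb3: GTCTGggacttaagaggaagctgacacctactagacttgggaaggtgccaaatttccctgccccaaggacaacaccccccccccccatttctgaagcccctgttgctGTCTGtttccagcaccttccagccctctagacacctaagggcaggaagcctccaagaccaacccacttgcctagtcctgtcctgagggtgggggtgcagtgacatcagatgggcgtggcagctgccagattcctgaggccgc

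Both strands of the 250 bases before the RefSeq start were searched for 6 short motifs, of which the Smad box was added after the windows had been read. For genes with 2 listed starts the one farthest upstream was used, and 4 of the 21 windows (Itga9, Itgb8, Lama2 and Lamb3) lay inside the annotated gene. The Smad box was in 13 of the 21 windows, against 42.2% of 32851 windows of all genes. The windows of all genes kept every listed start, and none was left out by chromosome, so the sets differ in make-up. The GC box GGGCGG was in 7 of the 21 windows, against 32.7% of all windows. The CCAAT box was in 2 (Itgb8 and Lamb1), against 33.8%, and the Runx site TGTGGT was in 1 (Itga4), against 14.0%. Neither the AP-1 site TGANTCA (6.7% of all windows) nor the TATA box TATAAA (12.4%) was in any of the 21. GENCODE M21 places the whole Itgb8 window within an exon, and its sequence is not printed. These matches describe the letters only.

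ELA libraries held 18056774 to 32110160 counts each, and control libraries 18683431 to 20831736. A member had 32 to 36558 counts in a library. The 31 members together took 0.549 to 0.777% of the counts in ELA and 0.585 to 0.734% in control mice. Values per mouse are CPM, in which each count is divided by its library's total after TMM adjustment, and fold changes are on the log2 scale, ELA over control. One ELA library, t-203-1-4, held RNA of nervous tissue, with 139.8 CPM of Zic1 against at most 0.771 CPM in any other library. In bulk tissue, fewer cells of a type and less RNA per cell cannot be told apart.

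Epithelial members did not all stand high among the 31 genes. Lamb3, Itga6 and Lama3 were among the 5 most abundant per length, with the broad chains Itgb1 and Itgb5. Levels between genes were compared as FPKM (counts scaled to gene length and library total), averaged over all 9 mice. Itgb1, the common partner of most α chains, was the most abundant at 249.3 ± 41.0 FPKM (SD, n = 9). Lamb3 was at 160.6 ± 25.4 FPKM. Lower levels were those of Itgb5 at 108.3 ± 10.45, Itga6 at 93.8 ± 23.5 and Lama3 at 88.4 ± 14.4 FPKM, whose spreads overlap. Itgb4 was at 26.8 ± 4.37 FPKM and Itgb6 at 13.9 ± 7.27 FPKM. Itgb3, best known from platelets and osteoclasts, was at 17.1 ± 9.55 FPKM, and the epithelial chain Itga3 at 13.7 ± 3.95 FPKM. At the low end, Itga4, a leukocyte α chain, was at 0.813 ± 0.171 FPKM and Itga2b, the platelet α chain, at 0.495 ± 0.163 FPKM. Within a mouse, Lamb3 was 1.58 to 2.26 times Lama3 per length in ELA and 1.53 to 2.50 times in control mice.

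**Figure D1:**
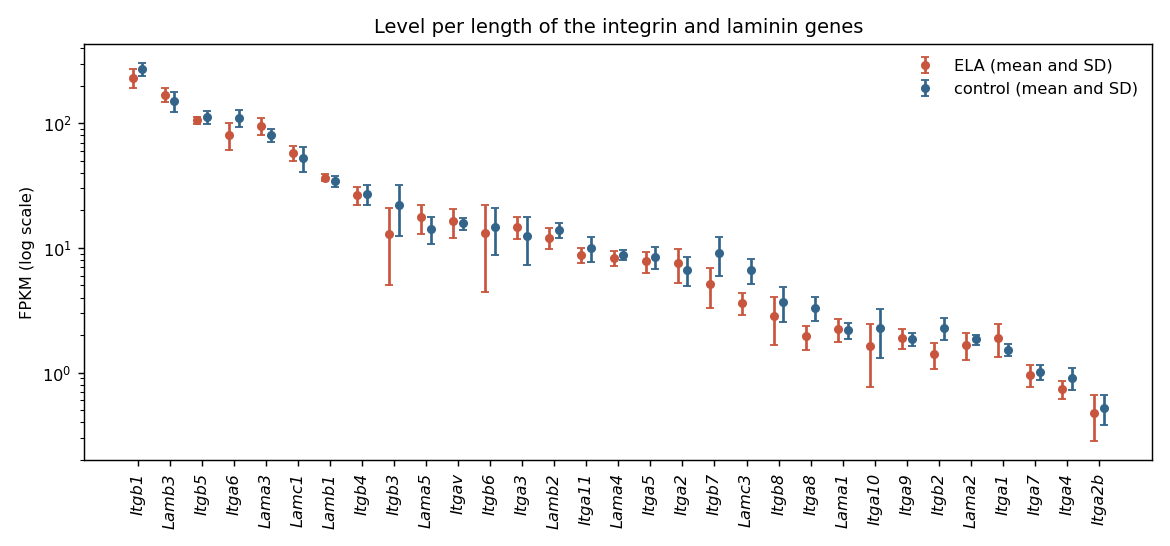
FPKM on a log axis for the 31 integrin and laminin genes, ordered by their mean over all 9 mice, with the mean and SD of ELA mice at the left and of control mice at the right of each position. Itgb1 stands at the top and Itga2b at the bottom, and the SD bars of the groups overlap for most genes.

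For most members the ELA and control mice overlapped. None of the 31 passed an adjusted p of 0.05 in edgeR's quasi-likelihood test, where 0.0377% of all tested genes passed as higher and 0.0251% as lower in ELA. By unadjusted edgeR p below 0.05, 0 of the 31 genes described were higher in ELA, against 3.56% of all tested genes. At the same cut-off 4 were lower (Lamc3, Itga8, Itgb2 and Itgb7), or 12.9% of the 31, against 2.89% of all tested genes. DESeq2 gave 1 member an adjusted p below 0.05, Lamc3, which was lower, against 0.315% of its tested genes that were lower, and limma-voom gave 0. All ELA mice lay below all control mice for 2 of the 31 (Lamc3 and Itgb2), against 1.29% of all tested genes. The reverse, with the lowest ELA mouse above the highest control mouse, held for 0 of the 31, against 1.37% of all tested genes. Without t-203-1-4, 0 of the 31 were higher and 4 were lower at an unadjusted edgeR p below 0.05, against 2.74% and 3.01% of the genes tested in that fit.

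Median fold changes were taken by class and by protein family. The classes are smaller and more numerous than the families, so the ranges of their medians cannot be compared. Classes followed the cells in which each gene is best known. The broad class took the rest, among them Lamc3, which is less widespread. The median log2 fold change was 0.14 for the 6 epithelial members (4 above 0 and 2 below) and -0.07 for the 8 mesenchymal members (1 above and 7 below). It was -0.64 for the 5 leukocyte, platelet or osteoclast members (all 5 below) and 0.09 for the 12 broad members (7 above and 5 below). Over all 31 it was -0.06, and over all tested genes it was 0.01. By family, the 10 laminins had a median of 0.12 (6 above and 4 below 0) and the 21 integrins -0.09 (6 above and 15 below). When 1 mouse was left out, the epithelial median ran between 0.023 (without t-205-1-1) and 0.21, the mesenchymal one between -0.11 and 0.0034 (without c-202-1-2), the leukocyte, platelet or osteoclast one between -0.72 and -0.40 (without c-202-1-1), and the broad one between 0.016 (without t-203-1-4) and 0.14. No class was tested as a set.

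**Figure D2:**
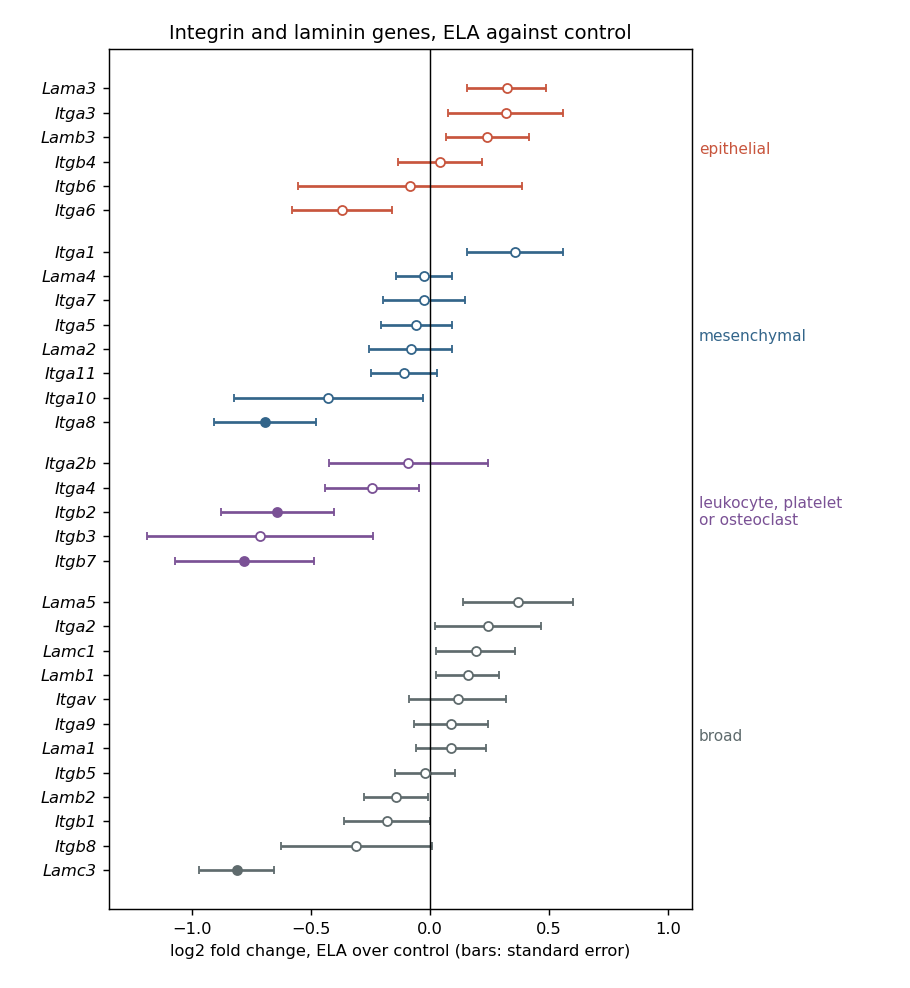
Log2 fold change of ELA over control for each of the 31 integrin and laminin genes, with its standard error, grouped by class from top to bottom. Filled points had an unadjusted edgeR p below 0.05: Itga8, Itgb2, Itgb7 and Lamc3, all to the left of 0.

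Among the ligands, the epithelial chains Lama3 and Lamb3 had positive fold changes, neither with an unadjusted edgeR p below 0.05. Lama3, the α chain of the main epithelial laminin, lies on chromosome 18. In the ELA mice t-205-1-1, t-205-1-3, t-203-1-3, t-203-1-4 and t-203-1-5 it had 1401, 968, 1103, 954 and 814 CPM, against 801, 792, 858 and 905 CPM in the control mice c-204-1-1, c-204-1-2, c-202-1-1 and c-202-1-2. Values per mouse are given in this order throughout. The mouse t-205-1-1 was highest, and t-203-1-5 was within the control range. For this gene the log2 fold change was 0.32 ± 0.17, with an unadjusted edgeR p of 0.0762. Without t-205-1-1 it was 0.20, and without t-203-1-5 it was 0.40 with an unadjusted edgeR p of 0.0270. Lamb3, the β chain of the same laminin (chr1:193207699-193343878, plus strand), had 1505, 1019.6, 1070.1, 1003 and 1129.6 CPM in ELA mice, against 1229, 807, 989.7 and 852 CPM in control mice. The ELA mice except t-205-1-1 were below the highest control mouse, c-204-1-1. The log2 fold change came to 0.24 ± 0.18, with an unadjusted edgeR p of 0.197, and was 0.13 without t-205-1-1 and 0.38 without c-204-1-1. Both genes together held 59.1 to 65.5% of the counts of the 10 laminins in ELA and 58.1 to 61.5% in control mice, ranges that overlap. The mouse t-205-1-1 had the highest Lama3 and Lamb3 of all 9 mice.

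Lamc3, a less widespread γ chain best known from retina and brain, had a negative fold change and the smallest p among the members. This gene (chr2:31887291-31946539, plus strand) had 22.4, 21.2, 20.3, 28.5 and 19.7 CPM in ELA mice, against 40.2, 40.1, 30.2 and 47.2 CPM in control mice. All 5 ELA mice were below all 4 control mice, the nearest being t-203-1-4 and c-202-1-1. Lamc3 averaged 22.4 ± 3.56 CPM in ELA, against 39.4 ± 7.01 CPM in control mice (SD, n = 5 and 4), a log2 fold change of -0.81 ± 0.16 (SE). Its adjusted p was 0.110 in edgeR and 0.131 in limma-voom, and 0.00428 in DESeq2. When edgeR was run on all genes, with none left out for low counts, the adjusted p was 0.0327, and over all 20 alternatives it ran between 0.00428 and 0.9996, with log2 fold changes between -0.92 and -0.71. Without t-203-1-4, the library with RNA of nervous tissue, the log2 fold change was -0.92. An antisense gene, Gm13441, shares 382 of its 6091 exon bases and averaged 0.200 counts in ELA and 1.25 in control libraries.

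Of the other laminins, Lama5, an α chain of many epithelial and vascular basement membranes, had 305, 213, 170.5, 198 and 139 CPM in ELA mice, against 204.7, 112, 160.3 and 158 CPM in control mice. Only t-205-1-1 and t-205-1-3 exceeded the highest control mouse. This gave a log2 fold change of 0.37 ± 0.23, with an unadjusted edgeR p of 0.135. The value was 0.19 without t-205-1-1, 0.23 without c-204-1-2 and 0.52 without c-204-1-1, and the unadjusted edgeR p was 0.0488 without t-203-1-5. Lamb1, the β chain of the common trimers, had 432, 332, 400.2, 351 and 337 CPM in ELA mice, against 292, 331, 371 and 336 CPM in control mice. Its groups overlapped as well, with a log2 fold change of 0.16 ± 0.13 and an unadjusted edgeR p of 0.264. Lamc1, the usual γ chain, had a log2 fold change of 0.19. Lama1, an α chain of early basement membranes, had 0.09, and Lamb2, a β chain of muscle and vessel laminins, had -0.14.

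**Figure D3:**
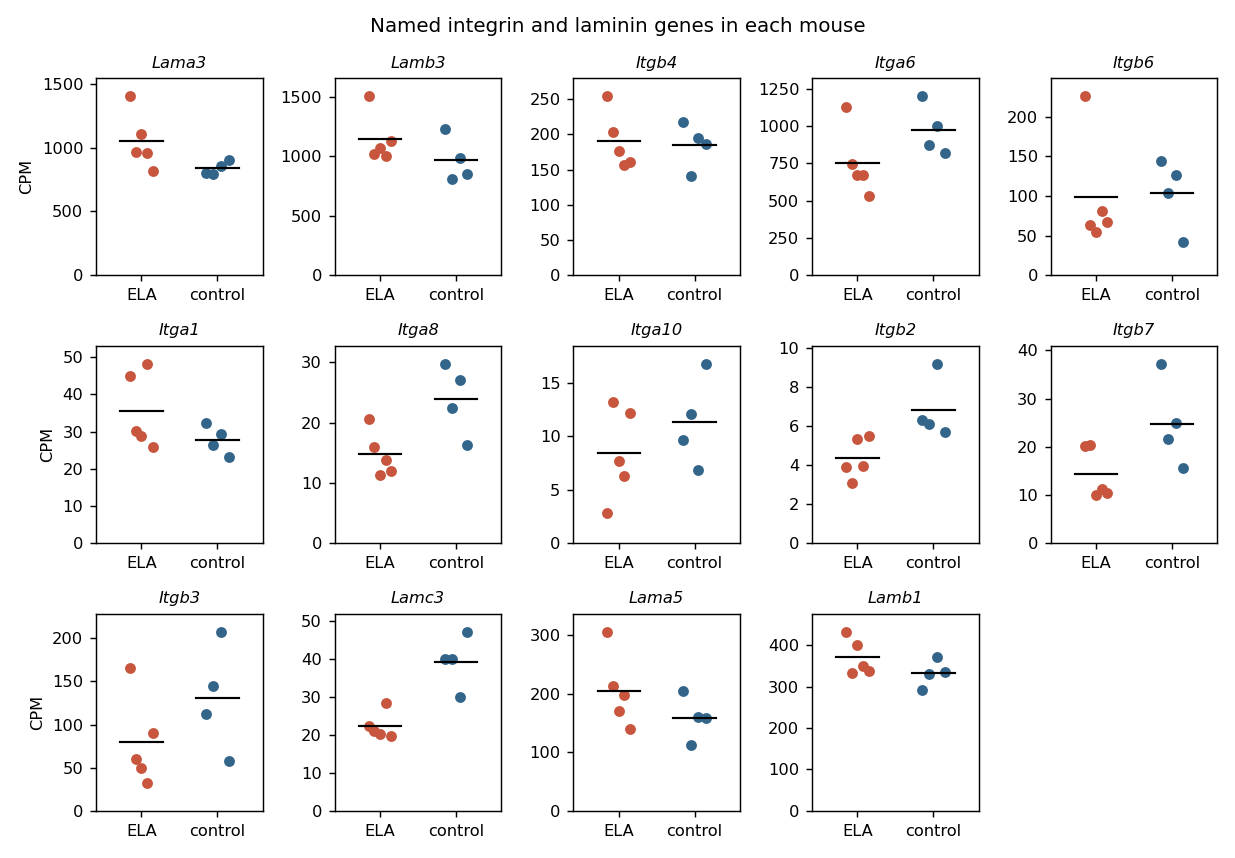
CPM in each mouse for 14 integrin and laminin genes, with ELA mice at the left and control mice at the right of each panel and a line at the group mean. Only for Lamc3 and Itgb2 do the points of the groups separate fully, and in the panel of Itgb6 the ELA mouse t-205-1-1 stands apart at 225.5 CPM.

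Among the epithelial receptors, the partners in the hemidesmosome had fold changes of opposite sign, neither with an unadjusted edgeR p below 0.05. Itga6 (chr2:71745616-71858416, plus strand) had 1128, 747, 674, 674 and 529 CPM in ELA mice, against 1198, 869, 997 and 819 CPM in control mice. Apart from t-205-1-1, all ELA mice were below all control mice. Its log2 fold change was -0.37 ± 0.21, with an unadjusted edgeR p of 0.106. Without t-205-1-1 it was -0.56, with an unadjusted edgeR p of 0.00660. Itgb4 (chr11:115974709-116008412, plus strand) had 254, 203.8, 177, 157 and 161 CPM in ELA mice, against 217, 141, 195 and 187 CPM in control mice. The groups overlapped almost wholly, with a log2 fold change of 0.04 ± 0.18 and an unadjusted edgeR p of 0.826. That sign turned with library sizes taken as plain totals (-0.03). Per length, Itga6 over Itgb4 was 2.56 to 3.45 in ELA and 3.40 to 4.78 in control mice, a ratio chosen after the values were seen and not tested. Itga3, the α chain that binds laminin as a pair with Itgb1, had a log2 fold change of 0.32 ± 0.24, and 65.4 to 99.6 CPM in ELA against 47.1 to 105 CPM in control mice. Leaving out c-204-1-1 gave 0.60 (unadjusted edgeR p 0.0150), and leaving out c-204-1-2 or c-202-1-1 gave 0.17.

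Itgb6 (chr2:60598292-60722643, minus strand) was the most uneven epithelial member. It had 225.5, 62.9, 54.3, 81.4 and 66.7 CPM in ELA mice, against 143.6, 103.4, 126.4 and 42.6 CPM in control mice. The ELA mouse t-205-1-1 was the highest of all 9 and the control mouse c-202-1-2 the lowest, and the other 4 ELA mice were below the other 3 control mice. The highest value was 4.16 times the lowest in ELA and 3.37 times in control mice. For this gene the log2 fold change was -0.08 ± 0.47, with an unadjusted edgeR p of 0.863. Without t-205-1-1 it was -0.64, and it turned positive when any of several other mice was left out.

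Marker genes of epithelium and of ameloblasts were summed beside the epithelial members. Such a sum mostly follows its most abundant genes and is not a level of the cell type. The 6 epithelium markers (Epcam, Cdh1, Krt5, Krt14, Trp63 and Perp) summed to 8447 to 14259 CPM in ELA, against 10390 to 16334 CPM in control mice, with 3 fold changes above and 3 below 0 and none at an unadjusted edgeR p below 0.05. The 9 ameloblast markers summed to 106184 to 169416 CPM in ELA, against 80149 to 106024 CPM in control mice, and the list had a median log2 fold change of 0.09 (7 above and 2 below 0). Of the 9, 3 were higher at an unadjusted edgeR p below 0.05, against 3.56% of all tested genes. Only 1, the main enamel matrix gene Amelx, passed the adjusted p in edgeR (log2 fold change 1.56). The part of these markers in the values of the epithelial members was not tested.

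The mesenchymal members lay slightly below 0 as a class, and Itga8 was the one with an unadjusted p below 0.05. Itga8, the α chain of the nephronectin receptor, had 20.5, 16.0, 11.4, 13.8 and 12.1 CPM in ELA mice, against 29.7, 22.4, 27.1 and 16.2 CPM in control mice. The groups overlapped because t-205-1-1, the highest ELA mouse, exceeded c-202-1-2, the lowest control mouse. The log2 fold change came to -0.69 ± 0.21, with an unadjusted edgeR p of 0.00734 and an edgeR adjusted p of 0.482 (0.157 to 0.9997 over 20 alternatives). An antisense gene, E030013I19Rik, shares 372 of its exon bases and averaged 5.40 counts in ELA and 5.50 in control libraries.

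Itga1, a collagen receptor chain, had 44.98, 30.2, 28.8, 48.1 and 25.8 CPM in ELA mice, against 32.3, 26.5, 29.4 and 23.1 CPM in control mice. Here t-205-1-1 and t-203-1-4 were above all control mice and the other ELA mice were within the control range. This gave a log2 fold change of 0.36 ± 0.20, with an unadjusted edgeR p of 0.102. It was 0.22 without t-203-1-4, the library with RNA of nervous tissue, and 0.46 without t-203-1-5, with an unadjusted edgeR p of 0.0364. Its neighbour Itga2, another collagen receptor chain 20996 bases away on the same strand, had a log2 fold change of 0.24. Itga10, a collagen receptor chain of cartilage, had 2.85, 13.2, 7.69, 6.28 and 12.2 CPM in ELA mice, against 9.71, 12.1, 6.86 and 16.8 CPM in control mice. With ELA mice that differed 4.64-fold among themselves, its log2 fold change of -0.43 ± 0.40 had an unadjusted edgeR p of 0.303, and was -0.21 without t-205-1-1 and -0.18 without c-202-1-2. Gm42957, on the same strand, shares 1739 of the 5186 exon bases of Itga10, so reads there cannot be assigned with certainty.

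The other mesenchymal members were close to 0. Itga5, the fibronectin receptor chain, had a log2 fold change of -0.06, Itga11, a fibroblast collagen receptor chain, -0.11, and Itga7, a laminin receptor chain of muscle, -0.03. Lama2, the α chain of muscle laminin, had -0.08, and Lama4, the α chain of vessel laminin, -0.02. The 8 mesenchyme markers (Col1a1, Col1a2, Col3a1, Dcn, Lum, Pdgfra, Pdgfrb and Postn) all had negative fold changes, with a median of -0.54. At an unadjusted edgeR p below 0.05, 5 of them were lower, against 2.89% of all tested genes. They summed to 11966 to 23332 CPM in ELA, against 15650 to 30955 CPM in control mice, ranges that overlap. Their part in the values of the mesenchymal members was not tested.

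All 5 members best known from leukocytes, platelets or osteoclasts had negative fold changes, as did 7534 of all 15909 tested genes. Itgb2, the β chain common to leukocyte integrins, had 3.89, 3.07, 5.35, 3.97 and 5.50 CPM in ELA mice, against 6.28, 6.12, 9.16 and 5.71 CPM in control mice. All ELA mice were below all control mice, by a narrow gap between t-203-1-5 and c-202-1-2. Its log2 fold change was -0.64 ± 0.24, with an unadjusted edgeR p of 0.0193 and an edgeR adjusted p of 0.632 (0.409 to 0.99995 over 20 alternatives). Without c-202-1-1, the highest control mouse, its unadjusted edgeR p was 0.0872.

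Itgb7, the β chain of lymphocyte homing receptors, had 20.2, 20.3, 10.03, 11.2 and 10.47 CPM in ELA mice, against 37.1, 21.5, 25.0 and 15.5 CPM in control mice. The ELA mice t-203-1-3, t-203-1-4 and t-203-1-5 were below all control mice, and t-205-1-1 and t-205-1-3 were within their range. For this gene the log2 fold change was -0.78 ± 0.29, with an unadjusted edgeR p of 0.0212 and an edgeR adjusted p of 0.643 (0.139 to 0.9997 over 20 alternatives). Without those 3 mice the log2 fold change was -0.29, and the unadjusted edgeR p was 0.0502 without t-203-1-5 and 0.0940 without c-204-1-1. Itga4, the α chain that pairs with Itgb7 or Itgb1, had a log2 fold change of -0.25 and shares 1124 exon bases with Cerkl on the opposite strand. Itga2b, the platelet chain, had -0.09.

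Itgb3, a β chain best known from platelets and osteoclasts, had 165, 59.8, 49.5, 32.2 and 90.2 CPM in ELA mice, against 112, 144, 207 and 57.7 CPM in control mice. Which cells gave its RNA here was not tested. The ELA mice differed 5.12-fold among themselves, the most of any member. The log2 fold change came to -0.71 ± 0.48, with an unadjusted edgeR p of 0.164. Without t-205-1-1 it was -1.16, with an unadjusted edgeR p of 0.0164, and without c-202-1-1 it was -0.40. Per length, Itgb3 averaged 12.9 ± 7.84 FPKM in ELA, against 22.2 ± 9.87 FPKM in control mice (SD, n = 5 and 4). Its platelet partner Itga2b averaged 0.472 ± 0.191 FPKM in ELA, against 0.524 ± 0.141 FPKM in control mice.

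The tested markers of leukocytes and osteoclasts had negative fold changes as well. Of 9 leukocyte markers 8 were tested, all 8 with negative fold changes. At an unadjusted edgeR p below 0.05, 4 of them were lower, against 2.89% of all tested genes. All 9 summed to 110.0 to 170.3 CPM in ELA, against 140.1 to 203.3 CPM in control mice, and Cd3e, a T cell marker, had 0 counts in every ELA library and at most 0.0959 CPM in a control library. The 4 tested osteoclast markers were also negative, 1 of them (Ctsk) at an unadjusted edgeR p below 0.05, and all 5 summed to 185 to 669 CPM in ELA, against 398 to 685 CPM in control mice. Of the 4 platelet markers only Pf4 was tested, with a log2 fold change of -0.00021. The 4 summed to 3.40 to 9.73 CPM in ELA, against 4.43 to 10.1 CPM in control mice, and one of them, Gp1bb, had 0 counts in all libraries. Their part in the values of the 5 members was not tested. The leukocyte α chains that the rule left out were few: 4 of 5 were tested, and all 4 had negative fold changes, with 0 at an unadjusted edgeR p below 0.05. The smallest p among them belonged to Itgal, the lymphocyte partner of Itgb2 (log2 fold change -0.70), followed by Itgax (-0.68) and Itgae (-0.07).

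**Figure D4:**
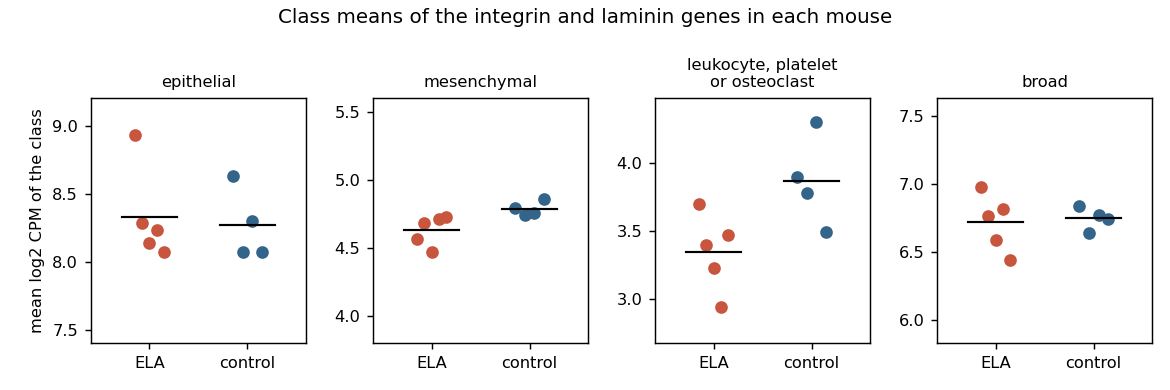
Mean log2 CPM over the members of each class in each mouse, with ELA mice at the left and control mice at the right of each panel and a line at the group mean. The 5 ELA mice reach 2.94 to 3.70 and the 4 control mice 3.49 to 4.30 in the leukocyte, platelet or osteoclast panel, with overlap, and t-205-1-1 is the highest mouse of the epithelial panel at 8.93.

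The broad integrin chains had log2 fold changes between -0.31 (Itgb8) and 0.24 (Itga2), none at an unadjusted edgeR p below 0.05. Itgb1 had a log2 fold change of -0.18, Itgb5, a vitronectin receptor chain, -0.02, Itgav, the α chain that pairs with Itgb3, Itgb5, Itgb6 and Itgb8, 0.12, and Itga9, a tenascin receptor chain, 0.09. Itgb8 had -0.31 ± 0.32, with an unadjusted edgeR p of 0.351. Without t-205-1-1 it was -0.63, with an unadjusted edgeR p of 0.0239, and without c-202-1-1 it was -0.07. In CPM it was at 58.8, 32.1, 27.2, 24.5 and 20.3 in ELA mice, against 36.3, 40.9, 59.1 and 25.0 in control mice. Its 4 highest mice were c-202-1-1, t-205-1-1, c-204-1-2 and c-204-1-1.

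The same 4 mice, 1 from ELA and 3 controls, were the highest for Itgb6 and Itgb3, which also pair with Itgav. This was noticed after the values were seen. It also held for Itga6, Itga8 and Itgb1, so for 6 of the 31 members. Of these, Itgb6 matches by construction, because the set was taken as its 4 highest mice. It held for 461 genes, or 2.90% of all tested genes, these members among them. Outside the members, it held for Wdr72, a gene of maturation-stage ameloblasts, which had 451, 176, 234, 141 and 199.8 CPM in ELA mice, against 272, 413, 489.7 and 159 CPM in control mice. It held for Odam, another maturation-stage gene, as well. Both were picked from the 9 ameloblast markers after their values were seen and do not stand for that list. Of the 9 markers, 7 had fold changes above 0 and 2 below. The 9 summed to 106184 to 169416 CPM in ELA, against 80149 to 106024 CPM in control mice. The order of mice in the other ameloblast and osteoclast markers is not given here. The osteoclast genes Acp5 and Ctsk had another set of 4 highest mice, c-202-1-1, c-202-1-2, c-204-1-2 and t-203-1-5, in which only 2 of the mice recur. No correlation was computed over these 9 mice, and the shared order was not tested.

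**Figure D5:**
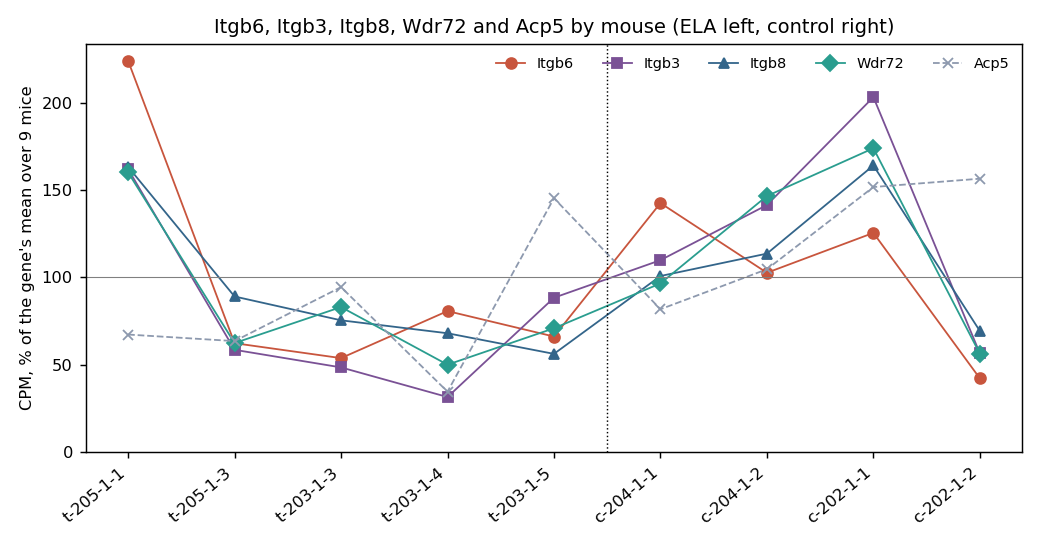
CPM of Itgb6, Itgb3, Itgb8, Wdr72 and Acp5 in each mouse as a percentage of the mean of that gene over all 9 mice, with ELA mice left and control mice right of the dotted line. For each of the first 4 genes the 4 highest points are those of t-205-1-1, c-204-1-1, c-204-1-2 and c-202-1-1. Acp5 (dashed) is highest in c-202-1-2, followed by c-202-1-1 and t-203-1-5.

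Genes that work with these receptors were looked at in 4 lists. At an unadjusted edgeR p below 0.05, 3.56% of all tested genes were higher and 2.89% lower, and lists this short hold few calls at such shares. None of the 6 hemidesmosome partners had an unadjusted edgeR p below 0.05, with 1 fold change above and 5 below 0. The smallest unadjusted edgeR p were those of Krt14, a basal keratin (0.149, log2 fold change -0.34), Col17a1, the collagen of the hemidesmosome (0.196, log2 fold change -0.29), and Krt5, the partner keratin (0.494, log2 fold change -0.13). Of 16 other basement membrane genes 15 were tested, 7 above and 8 below 0, none at an unadjusted edgeR p below 0.05. Here the genes with the smallest p were Bcam, a laminin receptor outside the integrins (log2 fold change 0.23), Frem2 (0.25) and Agrn, the heparan sulphate proteoglycan agrin (-0.17). The type IV collagen genes Col4a1 and Col4a2 had log2 fold changes of 0.01 and -0.01.

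Of the 19 genes of the intracellular adhesion complex, 12 fold changes were above and 7 below 0. At an unadjusted edgeR p below 0.05, 1 was higher (Tns1, which links integrins to actin; log2 fold change 0.40) and 1 was lower (Fermt2, a kindlin; log2 fold change -0.34). Parvg, a parvin of blood cells, came next (-0.78). Of 10 other integrin ligands and TGF-β genes, 4 were above and 6 below 0, with 2 lower at that cut-off. These were Tgfb2 (log2 fold change -0.43) and Spp1, the bone matrix ligand osteopontin (-0.78), and Lrrc32, a carrier of latent TGF-β, came next (0.30). Tgfb2 had 32.2, 25.4, 25.8, 27.7 and 33.2 CPM in ELA mice, against 42.9, 40.3, 32.1 and 40.2 CPM in control mice. None of these genes passed the adjusted p in edgeR. Over all tested genes, 3.56% were higher and 2.89% lower at the unadjusted cut-off.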

How the data were processed

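The values are unnormalized read counts of Ensembl genes, deposited by the authors as 1 table for 9 libraries, 5 ELA and 4 control, with 1 library per male P12 pup. CASAVA, HISAT and HISAT2 are listed, with no version, in the processing notes of the submitters. How reads were counted, with which strand setting and on which build is not given in the sources used here. All 31 members described have the same start, end and strand in GENCODE M21, so positions are on GRCm38. Without known strand handling, a gene and its antisense partner cannot be told apart, and 10 members share exon bases with another gene. No sample column was left unassigned.

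Counts were tested with edgeR 4.0.16 in R 4.3.3 (filterByExpr with a count minimum of 10, TMM, robust quasi-likelihood test, Benjamini-Hochberg over 15909 genes, threshold 0.05). DESeq2 1.42.0, which the study's methods name, and limma-voom (limma 3.58.1) were alternatives, as were other size factors, other filters on low counts, counts summed over the mice of a title number, and leaving out each mouse. Log2 CPM used a prior count of 2, and FPKM used plain library totals and the gene lengths of the table. The tests treat each mouse as independent, which the sources do not establish. The p-values rest on that assumption and on these samples alone. Chi-square over degrees of freedom was 19.5 to 122 between libraries of a group, so none repeats another. The scripts were tested on simulated data with independent libraries and with larger fold changes than any member had. That test does not show how well changes as small as those of the members are found.

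The rule for members gave 32 genes, of which 1 is not reported here and enters no count of members. Members, classes and lists were chosen with earlier results of these data known. Values per mouse were given for Itgb6, Itgb4, Lama3 and Lamb3, for members past the adjusted p in edgeR or DESeq2, and for the 3 members of each class with the smallest edgeR p, and the 3 genes with the smallest p were named from each related list. Itga3, Itgb8, Wdr72, Odam, Acp5, Ctsk, Zic1, Amelx, Col4a1, Col4a2 and the values per mouse of Tgfb2 were added after their values were seen.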

Additional observations from a re-analysis of the deposited data

Results flagged for a closer look

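Among the 14 named members with values per mouse, 28 groups of mice were checked for a mouse far from the others, and 3 stood out. Chance marks about 1 in 20 groups in such a check. Itgb6 in ELA had its highest mouse, t-205-1-1, at 225.5 CPM, with the next ELA mouse at 81.4 CPM. Lamb3 in ELA had the same mouse highest, at 1505 CPM, with the next at 1129.6 CPM. Itgb2 in control had its highest mouse, c-202-1-1, at 9.16 CPM, with the next control mouse at 6.28 CPM.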

How the results depend on the processing

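Each value was recomputed under 20 alternatives, of which leaving out all mice that share a title number (such as t-203-1) was chosen after seeing the data. Of the counts and class medians, 149 recomputed values lay within 1.5 times the reported count or within 1 SD between mice of the reported median, a wide margin beside medians this small, and 11 lay outside. Of the log2 fold changes of named genes, 265 kept sign and call, 13 changed sign and 2 gained a call. Members past the adjusted p as lower numbered 1 with DESeq2 and 1 in edgeR with no gene filtered out, in both cases Lamc3 (log2 fold change -0.81 in each, adjusted p 0.00428 with DESeq2 and 0.0327 in edgeR without the filter). The share of all tested genes in the same fit follows in brackets. Members higher at an unadjusted p below 0.05 numbered 1 with counts summed over title numbers (3.20%), 2 without the t-203-1 mice (2.34%), and 0 to 3 when 1 mouse was left out (1 without c-204-1-1, 3.35%; 3 without t-203-1-5, 4.53%, namely Itga1, Lama3 and Lama5). Members lower at that cut-off numbered 2 without the t-203-1 mice (3.67%), 2 without the c-204-1 mice (1.26%), 6 without the t-205-1 mice (3.76%), and 3 to 7 when 1 mouse was left out (7 without t-205-1-1, 3.34%). The median log2 fold change of the epithelial members was 0.42 without the t-203-1 mice, -0.011 without the t-205-1 mice and 0.071 with plain library totals, and that of the broad members was -0.021 without the c-204-1 mice and -0.015 without the t-205-1 mice. It was -0.16 for mesenchymal members without the c-204-1 mice and -0.22 for the leukocyte, platelet or osteoclast members without the t-203-1 mice. The log2 fold change of Itgb6 was 0.028 with summed counts, 0.47 without the t-203-1 mice, 0.21 without the c-204-1 mice, and -0.64 to 0.11 without 1 mouse. That of Itgb4 was -0.033 with plain library totals, -0.0093 without the c-204-1 mice, -0.17 without the t-205-1 mice, and -0.083 to 0.12 without 1 mouse. The cause was not tested.

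No paired analysis was possible because no title number occurs in both groups and replicate numbers were given in accession order. With 5 and 4 mice, few genes passed the adjusted p at all, so a member that missed it is not shown to be alike in ELA and control mice. If mice of a title number are littermates, p-values over single mice are too small.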
